A study of Mus musculus with 27 samples.

Results

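Calmodulin, the calmodulin-dependent kinases, protein kinase A (PKA), protein kinase C (PKC), the A-kinase anchoring proteins (AKAPs) and the serine/threonine phosphatases PP1 to PP6 were compared between the brains of 2 inbred mouse strains. Members were all probe sets of the unlettered arrays whose single annotation symbol begins with Camk, Calm and a digit, Prkc and 1 letter, Prkac, Prkar, Akap and a digit, or Ppp1 to Ppp6. Ppp1r1b was left out. This gave 77 probe sets of 59 genes, among 8251 genes named on the array. A probe set is a group of short oligonucleotides that reads 1 transcript or, for some sets, several like ones, and 13 member genes had more than 1. Another set carried a member's name together with a second gene and was not used. The rule itself uses gene names and no measured value, but it was written with earlier results of these data known.

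RNA came from whole brains of 5 C57 and 4 DBA mice that were 10 weeks old and naive, with 1 array each. The labels spell the strains C57BL/2 and DBA/2J. They give male sex for the C57 mice and no sex for the DBA mice. At the tested set of the Y-linked gene Eif2s3y, 103674_f_at, intensities overlapped between the strains (249.3 to 384.1 in C57, 295.8 to 337.8 in DBA). The suffix of this set marks probes shared by a family of sequences. Xist and the Y-linked gene Kdm5d were below the brightness limit of the test, so these values do not settle the sex of the DBA mice. Whole brain mixes all regions and cell types, so fewer cells of a type and less RNA per cell cannot be told apart.

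Calcium entering a neuron binds calmodulin, which switches on the CaM kinases and the phosphatase calcineurin (the Ppp3 genes). Cyclic AMP frees the catalytic subunits of PKA from its regulatory subunits, and AKAPs hold the enzyme at chosen places in the cell. Diacylglycerol, with calcium for the classical forms, activates PKC apart from its atypical forms. PP1, PP2A and calcineurin remove the phosphates again, each steered by regulatory subunits, and the balance of both sides sets receptor traffic and synaptic strength.

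Of the 77 member probe sets, 71 (56 genes) were bright enough to test, and 2 differed between the strains at an adjusted p under 0.05. Akap1 was higher and Prkce was lower in DBA brain, each at 1 of its probe sets. These 2 calls were 2.82% of the tested members, against 2.5% of all 9316 probe sets tested (0.891% higher and 1.61% lower in DBA), so the share of called members was near the background. For most of the kinase and phosphatase genes the measured difference was small. The median log2 difference, DBA minus C57, was 0.04 over the members and 0.01 over all sets, and the median size without sign was 0.16 and 0.15. The 95% interval of the difference lay within 2-fold either way for 67 of the 69 members that were not called, and within 1.5-fold for 42.

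**Figure D1:**
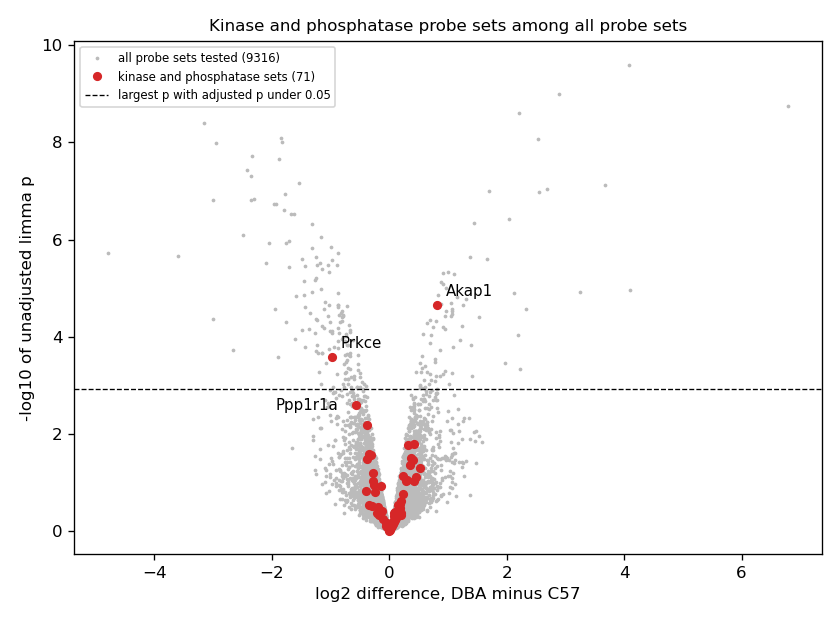
The log2 difference (DBA minus C57, horizontal axis) is plotted against -log10 of the unadjusted limma p (vertical axis) for 9316 probe sets (grey) and 71 kinase and phosphatase sets (red). Akap1 and Prkce lie above the dashed line that marks the largest p still called, Ppp1r1a lies just under it, and the other members sit among the grey points.

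AKAPs tether PKA to membranes and organelles, and Akap1 encodes the one that sits on the outer mitochondrial membrane. At Akap1 set 97368_at the C57 animals had intensities of 454.1, 456.8, 465.0, 548.0 and 499.9, and the DBA animals 787.6, 929.8, 925.2 and 776.0. All 4 DBA animals were above all 5 C57 animals. The intensity at this set was 1.76-fold higher in DBA (log2 difference 0.82 ± 0.11 SE, limma adjusted p = 0.00252).

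The other Akap1 sets moved less. Set 97369_g_at, which the annotation ties to the same sequence record as 97368_at, had 252.1, 352.0, 387.3, 312.7 and 402.8 in C57 and 435.8, 465.1, 455.7 and 389.4 in DBA. Here DBA animal 4 lay below C57 animal 5, and the log2 difference of 0.37 ± 0.15 did not pass (limma adjusted p = 0.330). Set 97367_at, tied to another record, had 161.2 to 206.1 in C57 and 130.3 to 241.2 in DBA, with DBA animal 3 lowest of all 9, and differed by 0.10 ± 0.18. The log2 ratio of 97368_at to 97367_at was higher in DBA by 0.71, and that of 97368_at to 97369_g_at by 0.45. Both ratios were higher in every DBA animal than in every C57 animal, the second by a narrow margin. These ratios are given with no test, since 97368_at was singled out by its own call. A called difference of Akap1 was measured at 1 of 3 sets, and no single fold stands for the whole gene.

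The sequence upstream of Akap1 is shown because it is the one called member with an entry among the RefSeq promoter windows. RefSeq (GRCm38.p6, the C57BL/6J reference) lists 3 windows for it, 2 of them overlapping, and 1 of each kind is printed over the 250 bases before the start. Capitals mark the GC box GGGCGG.
Akap1 start 1, chr11:88864587-88864836, minus strand: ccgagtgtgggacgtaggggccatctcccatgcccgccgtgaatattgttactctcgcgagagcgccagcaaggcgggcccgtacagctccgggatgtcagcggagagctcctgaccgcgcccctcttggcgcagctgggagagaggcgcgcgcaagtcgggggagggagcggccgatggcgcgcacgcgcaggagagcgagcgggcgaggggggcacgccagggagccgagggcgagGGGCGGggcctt
Akap1 start 2, chr11:88851513-88851762, minus strand: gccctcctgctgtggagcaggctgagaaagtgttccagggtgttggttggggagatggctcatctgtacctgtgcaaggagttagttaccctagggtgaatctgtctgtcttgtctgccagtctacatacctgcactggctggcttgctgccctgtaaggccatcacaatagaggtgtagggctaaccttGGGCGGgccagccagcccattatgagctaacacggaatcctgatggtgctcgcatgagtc
A GC box on either strand was found in 32.7% of the 32851 windows of this length. Each Akap1 window held 1. The cyclic AMP response element TGACGTCA, held by 1.55% of windows, and its part TGACG, held by 17.8% (any full element included), were not among these letters. The arrays measured no binding and no sequence variant at these places, and the DBA sequence was not used here.

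PKC isoforms are lipid-activated kinases, and Prkce encodes isoform epsilon, which responds to diacylglycerol without calcium. At Prkce set 103223_at the C57 animals had 2880.0, 1914.8, 2562.5, 2085.4 and 2229.2, and the DBA animals 1238.8, 1154.1, 879.6 and 1504.1. No DBA animal reached the lowest C57 animal. The intensity at this set was 1.97-fold lower in DBA (log2 difference -0.98 ± 0.18, limma adjusted p = 0.0144). Without DBA animal 2 the difference was -0.97 and the adjusted p 0.0522, whereas the call was made with any other single animal left out.

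Prkce set 94161_at had 883.6, 659.0, 677.6, 612.1 and 608.7 in C57 and 485.8, 609.1, 548.0 and 604.5 in DBA. The lower C57 animals met the higher DBA animals, and the log2 difference was -0.28 ± 0.14 (limma adjusted p = 0.452). Both Prkce sets thus lay below 0, but by different amounts. The log2 ratio of 103223_at to 94161_at was lower in every DBA animal than in every C57 animal, with a difference of -0.69, given with no test for the same reason.

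**Figure D2:**
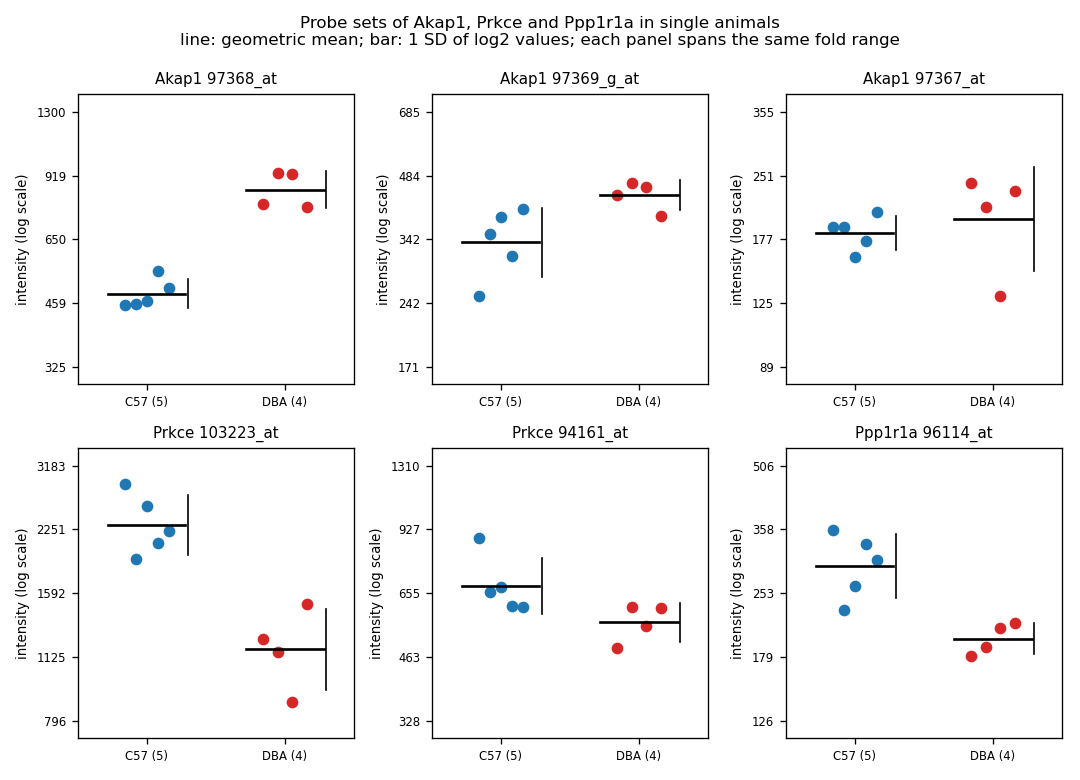
Intensity (log scale) of 6 probe sets in each of 5 C57 (blue) and 4 DBA (red) animals, with the geometric mean as a line and 1 SD of log2 values as a bar. Akap1 97368_at, Prkce 103223_at and Ppp1r1a 96114_at separate the strains, while the other Akap1 and Prkce sets overlap.

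In gene order by RefSeq, Akap1 lies on chromosome 11 and Prkce on chromosome 17. Of the 5 nearest tested genes on each side, 1 of 10 was called around Akap1 and 0 of 10 around Prkce, while 2.79% of 6856 tested genes had a called set. The called one was Scpep1, a serine carboxypeptidase gene that was next to Akap1 in the order of tested genes. Scpep1 went the other way (98042_at, 206.9 in C57 and 108.3 in DBA, -0.93 ± 0.16, limma adjusted p = 0.0102). Member genes matched by RefSeq identifiers (58 of 59) lay on 20 chromosomes, with at most 8 on 1.

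Among the other PKC genes, which cover calcium-dependent (Prkca, Prkcb), calcium-independent (Prkcd, Prkch, Prkcq) and atypical (Prkci, Prkcz) isoforms, limma called 0 sets. Over all 14 PKC sets, several of which read the same gene, 4 had an unadjusted p under 0.05, that of Prkce included. Of all probe sets tested, 12.2% had such a p. Prkcd 104531_at had 946.0 to 1118.3 in C57 and 1202.5 to 1521.9 in DBA, without overlap (0.31 ± 0.11, limma adjusted p = 0.243), but its set 160698_s_at overlapped (0.08 ± 0.16). Prkcb gave -0.39 ± 0.16 at 99511_at and 0.03 ± 0.10 at 99510_at, the brighter of its sets, whose 95% interval ran from -0.20 to 0.26. Prkch had 40.9 to 65.9 in C57 and 55.7 to 78.8 in DBA, close to the brightness limit of 35.4 (0.36 ± 0.16). The brightest sets of Prkca (-0.05 ± 0.13), Prkcz (-0.04 ± 0.10), Prkcq (-0.20 ± 0.19) and Prkci (0.28 ± 0.15) did not pass. For Prkcz at 96198_at the interval was -0.25 to 0.18, whereas 161964_r_at of the same gene differed by 0.46 ± 0.24.

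**Figure D3:**
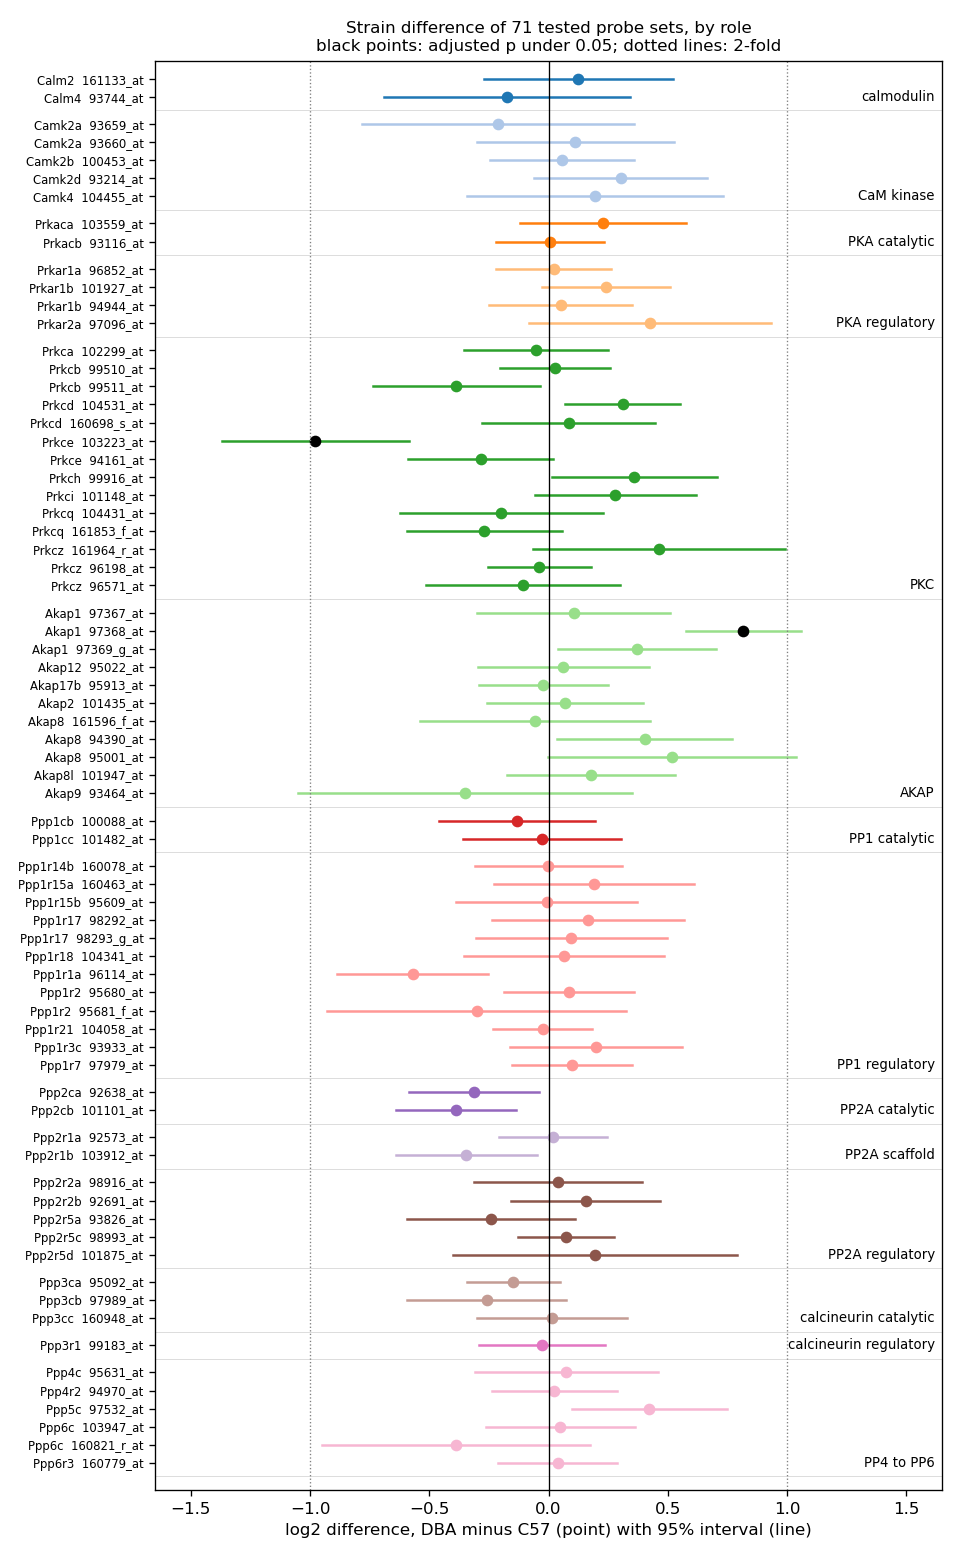
Log2 difference between DBA and C57 (point) with its 95% interval (line) for 71 tested probe sets, grouped by role, with the points of the 2 called sets in black and dotted lines at a 2-fold difference. All points lie between the dotted lines and 4 intervals cross them, with Prkce 103223_at farthest to the left and Akap1 97368_at farthest to the right.

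The calmodulin and CaM kinase sets showed no called difference. Over 2 calmodulin and 5 CaM kinase sets limma called 0, and 0 had an unadjusted p under 0.05. Camk2a encodes the alpha subunit of CaMKII, the abundant postsynaptic kinase of forebrain neurons. Its set 93660_at had 225.3 to 450.6 in C57 and 292.1 to 345.7 in DBA (0.11 ± 0.19), and 93659_at had 173.8 to 470.8 and 201.7 to 281.3 (-0.21 ± 0.25). C57 animal 1 was the highest animal at both Camk2a sets. The beta subunit gene Camk2b had 3737.5 to 4955.8 in C57 and 3747.0 to 4927.0 in DBA, nearly the same range (0.06 ± 0.13, 95% interval -0.24 to 0.36). Camk2d, the delta subunit, differed by 0.30 ± 0.16 and Camk4, a nuclear CaM kinase of neurons, by 0.20 ± 0.24. Calm2, 1 of several genes for the same calmodulin protein, differed by 0.13 ± 0.18 at a set with 164.6 to 279.3 in C57, and Calm4, which encodes a calmodulin-like protein of skin, by -0.17 ± 0.23.

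The PKA subunit sets showed no called difference. All 6 lay above 0, with 0 called by limma and 0 at an unadjusted p under 0.05. The sets of Prkacb and Prkar1a and set 94944_at of Prkar1b fell below 0 under other processing or with single animals left out. The catalytic subunit gene Prkacb had 4797.0 to 5692.6 in C57 and 4722.7 to 5538.5 in DBA, a log2 difference of 0.01 ± 0.10 whose interval ran from -0.22 to 0.23. Prkaca, the other catalytic gene, had 1362.0 to 1641.9 and 1396.6 to 2259.5, with DBA animals 2 and 4 above every C57 animal and animals 1 and 3 among them (0.23 ± 0.16). The type I regulatory gene Prkar1a had 8851.4 to 10123.0 and 8440.1 to 11116.4 (0.02 ± 0.11, interval -0.22 to 0.26). Prkar1b differed by 0.24 ± 0.12 at 101927_at and 0.05 ± 0.13 at 94944_at. The type II gene Prkar2a differed by 0.42 ± 0.23, and C57 animal 3 (108.6) stood apart there from 187.4 to 220.7 in the other C57 animals.

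Of the 15 AKAP sets (9 genes), 11 sets of 7 genes were tested, and 8 lay above 0 with 1 called. Akap8, a nuclear AKAP, had 396.6 to 562.5 in C57 and 479.8 to 801.1 in DBA at 94390_at (0.40 ± 0.16, limma adjusted p = 0.351). Its set 95001_at differed by 0.52 ± 0.23, with an interval that reached 1.04, and 161596_f_at, whose suffix marks probes shared by a family of sequences, by -0.06 ± 0.22. Akap9, a scaffold of the centrosome and Golgi, had the widest spread in C57 of the members tested (SD 0.58 log2 units). Its intensities were close to the brightness limit of 35.4 (33.4 to 97.2 in C57, 33.6 to 69.1 in DBA). The Akap9 interval of -1.05 to 0.35 did not lie within 2-fold. Akap12, which encodes gravin, differed by 0.06 ± 0.16, Akap8l by 0.18 ± 0.16, Akap2 by 0.07 ± 0.15 and Akap17b by -0.02 ± 0.12. Akap4, known from the sperm tail, Akap7 and 2 further sets of Akap8 were below the brightness limit, as were both sets of Ppp1r12c. At Akap7 the C57 animals had 2.5 to 9.4 and the DBA animals 3.6 to 26.0, all under that limit, so no difference was tested.

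PP1 has few catalytic and many regulatory subunits. Its catalytic genes Ppp1cb (-0.13 ± 0.15) and Ppp1cc (-0.03 ± 0.15) were not called. Ppp1r1a encodes inhibitor 1, which blocks PP1 once PKA has phosphorylated it. It had 355.9, 231.1, 263.4, 329.5 and 303.6 in C57 and 179.6, 188.5, 209.4 and 215.1 in DBA. All DBA animals were below all C57 animals, but the log2 difference of -0.57 ± 0.14 missed the threshold (limma adjusted p = 0.0802). Without C57 animal 2 it passed (-0.66, adjusted p = 0.0398), and without DBA animal 2 the adjusted p was 0.216.

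For the other 11 tested sets of PP1 regulators, the log2 difference ran from -0.30 to 0.20, and limma called 0 of the 12 sets, Ppp1r1a included. Ppp1r15a, the stress-induced subunit that directs PP1 to a translation factor, differed by 0.19 ± 0.19. Its constantly made counterpart Ppp1r15b differed by -0.01 ± 0.17. Ppp1r17, an inhibitor known from Purkinje cells, differed by 0.16 ± 0.18 and 0.10 ± 0.18 at its sets, and Ppp1r3c, which targets PP1 to glycogen, by 0.20 ± 0.16. The inhibitor 2 gene Ppp1r2 gave 0.09 ± 0.12 at 95680_at and -0.30 ± 0.28 at 95681_f_at, where DBA values ran from 79.6 to 222.6. The remaining values were 0.10 ± 0.11 for Ppp1r7, 0.06 ± 0.19 for Ppp1r18, -0.02 ± 0.09 for Ppp1r21 and -0.00 ± 0.14 for Ppp1r14b.

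PP2A is a trimer of catalytic, scaffold and regulatory subunits. Both catalytic genes had lower values in DBA without passing the test. Ppp2cb had 3179.0, 2831.8, 2757.6, 2576.4 and 2804.3 in C57 and 2033.9, 1928.3, 2531.0 and 2190.7 in DBA (-0.39 ± 0.11, limma adjusted p = 0.143). Ppp2ca had 754.1, 586.1, 552.0, 559.6 and 596.5 in C57 and 506.4, 426.6, 511.4 and 510.2 in DBA (-0.31 ± 0.12, limma adjusted p = 0.315). The strains did not overlap at either set, though DBA animal 3 came close to C57 animal 4 at Ppp2cb. The scaffold gene Ppp2r1b also separated them, with 102.6 to 150.4 in C57 and 82.0 to 97.7 in DBA (-0.34 ± 0.13, limma adjusted p = 0.306). The other scaffold gene, Ppp2r1a, did not, with 6149.7 to 7369.8 and 6232.6 to 7294.2 (0.02 ± 0.10, interval -0.21 to 0.25). Regulatory subunits differed by -0.24 ± 0.16 (Ppp2r5a), 0.04 ± 0.16 (Ppp2r2a), 0.07 ± 0.09 (Ppp2r5c), 0.16 ± 0.14 (Ppp2r2b) and 0.20 ± 0.27 (Ppp2r5d), and limma called 0 of these 5 sets, with 0 at an unadjusted p under 0.05.

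Calcineurin joins a catalytic to a calcium-binding regulatory subunit. Its major brain catalytic gene, Ppp3ca, had 5619.4 to 6332.0 in C57 and 5080.8 to 5622.5 in DBA, where only DBA animal 2 entered the C57 range (-0.15 ± 0.09, interval -0.34 to 0.05). This set had the smallest spread in C57 of all members tested (SD 0.06). Ppp3cb differed by -0.26 ± 0.15, Ppp3cc by 0.02 ± 0.14 and the regulatory gene Ppp3r1 by -0.03 ± 0.12. Of these 4 sets limma called 0, and 0 had an unadjusted p under 0.05.

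**Figure D4:**
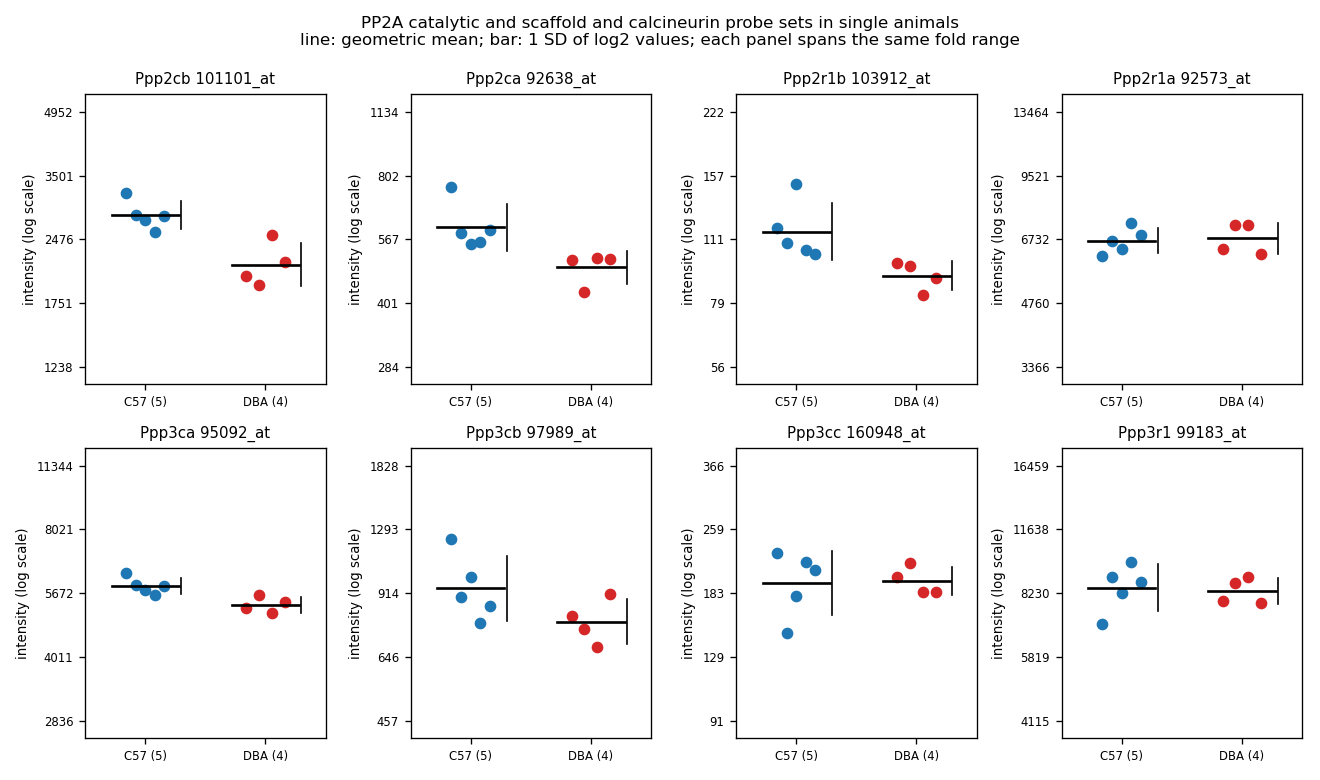
Intensity (log scale) of 4 PP2A and 4 calcineurin probe sets in each of 5 C57 (blue) and 4 DBA (red) animals, with the geometric mean (line) and 1 SD of log2 values (bar). The strains separate at Ppp2cb, Ppp2ca and Ppp2r1b and overlap at Ppp2r1a and at the 4 calcineurin sets, none of which was called.

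The single-subunit and smaller phosphatases gave 1 of 6 sets at an unadjusted p under 0.05, against 12.2% of all sets, and limma called 0. It was Ppp5c, a phosphatase that works with heat shock protein Hsp90 (438.9 to 657.4 in C57, 600.9 to 818.8 in DBA, 0.42 ± 0.15, limma adjusted p = 0.236). Ppp4c (0.07 ± 0.17), its partner Ppp4r2 (0.02 ± 0.12) and the PP6 subunit Ppp6r3 (0.04 ± 0.11) did not pass. Ppp6c differed by 0.05 ± 0.14 at 103947_at and by -0.39 ± 0.25 at 160821_r_at, where the DBA animals had 255.5, 438.6, 263.0 and 592.1 and the C57 animals 410.4 to 573.7. DBA animals 1 and 3 were below and animal 4 above all C57 animals at that set.

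Over all members, 12 of 71 sets (16.9%) had an unadjusted p under 0.05, 6 higher and 6 lower, against 12.2% of all sets. Without DBA animal 1 or DBA animal 2 the count was 7 (9.72% of the members tested then), against 11% and 10% of all sets. Strains did not overlap at 7 member sets (9.86%), 2 higher and 5 lower in DBA, against 6.45% of all sets. The 7 were those of Akap1, Prkcd, Prkce, Ppp1r1a, Ppp2ca, Ppp2cb and Ppp2r1b described above. Without DBA animal 4, 11 member sets (15.5%) did not overlap, against 11.9% of all sets with those 8 arrays. No test of these shares was made, since the sets were read from 9 shared animals. Of 12 genes with several tested sets, 6 had all sets on 1 side of 0 (Akap1, Ppp1r17, Prkar1b, Prkcd, Prkce and Prkcq) and 6 did not (Akap8, Camk2a, Ppp1r2, Ppp6c, Prkcb and Prkcz).

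Within a strain, member levels varied by a median SD of 0.23 log2 units in C57 and 0.18 in DBA, where all tested sets had 0.23 and 0.23. C57 animal 1 was the highest of its strain at 26 of the 71 member sets (36.6%, against 30.4% of all sets). In DBA, animal 3 was lowest at 25 (35.2%, against 28.9% of all sets) and animal 4 at 23 of the 71 sets (32.4%, against 25.1%).

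Genes that act beside these enzymes were read from a list of 62, of which 38 were tested. By the brightest set of each gene 1 was called higher and 0 lower, and 3 had an unadjusted p under 0.05, where 2.5% of all probe sets were called and 12.2% had such a p. Counting every set of these genes, 4 had such a p, and 7 without C57 animal 3. The call was Nos1, the calmodulin-activated neuronal nitric oxide synthase, with 143.8, 115.6, 156.9, 77.2 and 101.7 in C57 and 244.2, 279.5, 262.4 and 191.3 in DBA (1.07 ± 0.21, limma adjusted p = 0.0269). Leaving out C57 animal 2 (adjusted p = 0.0681), C57 animal 5 (0.0731) or any of DBA animals 1 to 3 (0.0830, 0.0959 and 0.0874) ended this call, as did testing without the brightness limit (0.0581). At a dimmer set, 98004_at, Pkia was lower in DBA. It encodes a protein inhibitor of the PKA catalytic subunits. The C57 animals had 1275.6, 1164.8, 1307.9, 928.8 and 977.9 and the DBA animals 465.5, 357.1, 314.3 and 539.9, without overlap (-1.45 ± 0.18, limma adjusted p = 0.00184). The brighter Pkia set, 98005_at, differed by -0.32 ± 0.28 (adjusted p = 0.738). Pkib, another inhibitor gene of this family, named after its values were seen, had 303.1 to 348.0 in C57 and 380.8 to 439.3 in DBA. Its strains did not overlap, with DBA above C57, but it missed the threshold (0.36 ± 0.09, limma adjusted p = 0.0954). By group, the brightest sets gave 0 of 6 adenylyl cyclases, 0 of 5 phosphodiesterases, 1 of 9 calmodulin-binding proteins and PKC substrates, 0 of 9 inhibitors and regulators, 0 of 4 CREB family genes and 0 of 5 other kinases and adaptors, with 0, 1, 1, 1, 0 and 0 at an unadjusted p under 0.05.

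Across the series, array medians ran from 159.6 to 197.8, and pairs of arrays correlated at 0.939 to 0.978 across tested probe sets, which are not independent. Markers of neurons were measured in both strains, with summed intensities of 28507 to 32220 in C57 and 29072 to 34235 in DBA and 0 of 4 genes called by limma (0 at an unadjusted p under 0.05). Some markers of other cells moved with strain. Oligodendrocyte markers lay below 0 at 4 of 4 brightest sets (sums 17849 to 25525 in C57, 17304 to 21285 in DBA), 2 of them at an unadjusted p under 0.05, Mog (-0.62 ± 0.18) and Mag (-0.57 ± 0.16), and limma called 1 gene of the list, Mobp, lower at a dimmer set (99046_at, -0.84 ± 0.12, adjusted p = 0.00416). These 3 were picked out after their values were seen. The other Mobp sets lay below 0 but were not called, namely 100536_at, the brightest (-0.11 ± 0.19), 99047_at (-0.22 ± 0.16) and 99048_g_at (-0.35 ± 0.13). The dimmer Mag set, 161846_r_at, went the other way (0.29 ± 0.18) and was not called. The microglial gene C1qb was called lower (1 of 5, with sums, C1qb included, of 3273 to 3779 in C57 and 2755 to 3245 in DBA). At their brightest sets the other microglial genes were not called. They differed by -0.15 ± 0.12 (C1qa), -0.06 ± 0.10 (Csf1r), 0.04 ± 0.16 (Cx3cr1) and -0.18 ± 0.25 (Aif1). Cerebellum markers lay above 0 at 4 of 4 brightest sets (sums 10322 to 12872 in C57 and 12768 to 14216 in DBA). A dimmer set, Pvalb 96720_f_at, lay below 0 (-0.04 ± 0.16). Choroid plexus markers lay above 0 at 3 of 3 brightest sets (sums 1109 to 3515 and 3443 to 4608). C57 animal 1 was the lowest of all animals at Ttr (907.4, other C57 animals 1964.1 to 2970.3), Folr1 (61.1, others 191.8 to 283.4) and Kl (140.7, others 184.9 to 261.6). For both lists limma called 0, with 1 gene of each at an unadjusted p under 0.05. No gene was called among 4 astrocyte, 4 endothelial, 4 pituitary, 2 blood, 2 striatal and 3 skeletal muscle markers or the 1 tested sex-linked gene, with 1, 0, 0, 0, 0, 0 and 0 at an unadjusted limma p under 0.05. The log2 ratio of 3' to 5' control sets of Gapdh, a measure of RNA integrity, was -0.29 to -0.19 in C57 and -0.44 to -0.32 in DBA (exact 2-sided permutation p = 0.0159, where 0.00794 is the smallest possible), and that of Actb overlapped (p = 0.159, exact). Whether cell makeup, RNA integrity or a strain variant under the probes has a part in the Akap1 or Prkce values was not tested. Probe sequences were not used here.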

How the data were processed

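Total RNA of whole brain, 5 ug per the labels, was measured on 1-colour oligonucleotide arrays. The deposited values of the 9 unlettered arrays are intensities on a linear scale. Without the lowest and highest 2% of values, their mean was 500.3 on every array. How the authors summarised and scaled them is not given in the sources used here. The lettered arrays were not used.

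A floor of 1.7, the 1st percentile of values above 0, raised 0.978% of the intensities before log2 was taken. Of 12488 probe sets, 66 controls and the dimmest 25% (mean intensity up to 35.4) were left out. All 9316 remaining sets were fitted together in R 4.3.3 (limma 3.58.1, lmFit then eBayes; 2-sided), with Benjamini-Hochberg adjustment over all sets. The script was tested on simulated data, with added differences larger than any measured among the members. Figures were drawn with matplotlib 3.10.9. Each numbered array was taken as 1 animal. The limma p-values weigh the strain difference against the spread between these arrays, with the variance of each set drawn toward that of all sets.

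Genes were named from a platform annotation dated 2016. All called members and other sets of their genes, the smallest p of each role, members with an adjusted p under 0.10 and the kinase and calcineurin genes are named by rule; the other members were added for completeness, and the probe set ratios, gene order and promoters were chosen after the values were seen. The members and the lists of other genes were chosen with earlier results of these data known. Alternatives covered scaling, floor, filter, variance model, block, set per gene, threshold and leaving out animals. The number of arrays limits the precision.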

Additional observations from a re-analysis of the deposited data

Results flagged for a closer look

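Of 142 strain groups of member probe sets, 10 held an animal far from the others of its strain, where chance gives about 1 in 20. In C57, animal 1 was high at Prkce 94161_at (883.6, others 608.7 to 677.6) and at Ppp2ca (754.1, others 552.0 to 596.5), and animal 3 was low at Prkar2a (108.6, others 187.4 to 220.7) and high at Ppp2r2a (195.8, others 120.9 to 138.6). In DBA, animal 2 was low at Ppp2ca (426.6, others 506.4 to 511.4) and at Akap8 161596_f_at (130.6, others 179.0 to 185.7) and high at Prkcz 96198_at (2134.5, others 1800.9 to 1830.0). DBA animal 3 was high at Prkcd 104531_at (1521.9, others 1202.5 to 1246.3). DBA animal 4 was low at Prkacb (4722.7, others 5427.1 to 5538.5) and high at Prkca (428.3, others 336.1 to 346.3). None of these sets was called between the strains.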

How the results depend on the processing

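Over all probe sets 233 were called, 73 with a replicate block, 154 with 1 probe set per gene, 150 at an adjusted p under 0.01, and 185 to 231 with 1 animal left out. Of the members 2 sets (2 genes) were called, 1 at an adjusted p under 0.01 (Akap1), and 1 to 3 with 1 animal left out. The 2 calls were also made under quantile normalization, median centring, a floor at the 5th percentile, log2 of the value plus 16, no filter, trend and robust variance, and 1 set per gene. With the dimmest 50% left out, Ppp1r1a was called as well. The deviations of same-numbered C57 and DBA animals from their strain means correlated at -0.10, -0.02, -0.01 and -0.17. These values cannot decide whether the replicate numbers pair the animals, since the probe sets are not independent. With the replicate block limma called 0 members, and 8 (11.3%) had an unadjusted p under 0.05, against 9.21% of all sets. The log2 differences of Akap1 (0.83, limma adjusted p = 0.0931) and Prkce (-0.99, limma adjusted p = 0.156) kept their direction with the block. It left 0 pathway genes called (3 sets at an unadjusted p under 0.05). Over all alternatives the adjusted p of Akap1 97368_at ran from 0.000422 to 0.0931. Members without overlap numbered 7 to 11 with 1 animal left out (9.72% to 15.5% of members), against 7.59% to 11.9% of all sets. Pathway genes called, 2 in all, fell to 1 with no filter, the dimmest 50% left out, 1 set per gene or the stricter threshold, and were 1 to 2 with 1 animal left out. Akap1 97368_at and Prkce 103223_at kept their sign under all 19 alternatives, and Nos1 98365_at and Pkia 98004_at under the 18 in which each was tested (Nos1 had no value with the dimmest 50% left out, Pkia none with 1 set per gene). Of the 73 sets followed, 24 uncalled ones crossed 0 under some alternative, all with an unadjusted p of at least 0.607 in the analysis as reported.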
